A study of Mus musculus with 12 samples.

Results

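The 10 genes described here are pericentral hepatocyte genes and targets of Wnt signalling in mouse liver (Glul, Oat, Cyp2e1, Rhbg, Slc1a2, Lect2, Axin2, Tbx3, Lgr5 and Rgn). They were chosen by symbol, and all 10 were found among the 51912 genes of the count table. Liver RNA came from adult male mice, with 3 libraries in each of 4 groups and 12 libraries in all. WT mice received corn oil or CITCO, an agonist of the human constitutive androstane receptor (CAR). The hCAR/hPXR mice, which carry human CAR and human PXR in place of the mouse receptors, and the Car KO/hPXR mice, which lack CAR and carry human PXR, received CITCO. Mice had a C57BL/6NTac background and were injected intraperitoneally each day for 4 days before being killed on day 5, and the sample labels give 10 mg/kg of CITCO. Every corn oil library came from WT mice, so a difference between genotypes under CITCO cannot be told apart from a difference between the genotypes themselves. The labels do not say that each library is a separate animal, although the methods give 3 mice per group.

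Hepatocytes differ along the axis from the portal tract to the central vein. Endothelial cells of the central vein secrete Wnt ligands and R-spondin 3, the latter acting through the receptors LGR4 and LGR5, and the β-catenin that accumulates in nearby hepatocytes acts with TCF/LEF factors to switch on pericentral genes. Glutamine synthetase, the product of Glul, marks the thin layer of hepatocytes nearest the vein, and mouse liver tumours with activated β-catenin often stain for it. The study used that stain to class tumours of mice given the carcinogen diethylnitrosamine and then CITCO in the diet for many weeks. The mice here were treated for 4 days, and their methods name no diethylnitrosamine. The comparisons here ask only whether RNA of the pericentral genes differed in whole liver after that short treatment. Many drug-metabolising enzymes induced by CAR and PXR are also pericentral. In whole liver, fewer cells of a type and less RNA per cell cannot be told apart.

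Libraries held between 1167027 and 2341572 counts, so that a single count was worth 0.448 to 0.835 CPM, the level unit used below (TMM-adjusted for library size). The genotype check held, since mouse Car (Nr1i3) had at most 6 counts and mouse Pxr (Nr1i2) at most 2 counts in any library of the humanised groups, against at least 100 counts of either gene in every WT library. The 8594 genes kept by edgeR's expression filter were tested, and they included 8 of the 10 genes but not Axin2 and Lgr5. A gene was called when its Benjamini-Hochberg adjusted p-value from edgeR's quasi-likelihood test was under 0.05 and its fold change over 1.5.

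None of the 8 tested genes was called in any comparison. The largest fitted differences were those of Rhbg, Tbx3 and Cyp2e1. Tbx3 had its lowest mean in WT CITCO mice and Cyp2e1 its highest. Rhbg also had its highest mean there, but its groups all overlapped. Its log2 fold change of 0.10 for CITCO in WT mice turned to -0.20 without WT corn oil replicate 2 and to 0.86 without WT corn oil replicate 1. Glul had its highest mean in Car KO/hPXR mice and Rgn its lowest in hCAR/hPXR mice, while Oat, Slc1a2 and Lect2 stayed within narrow intervals throughout.

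**Figure D1:**
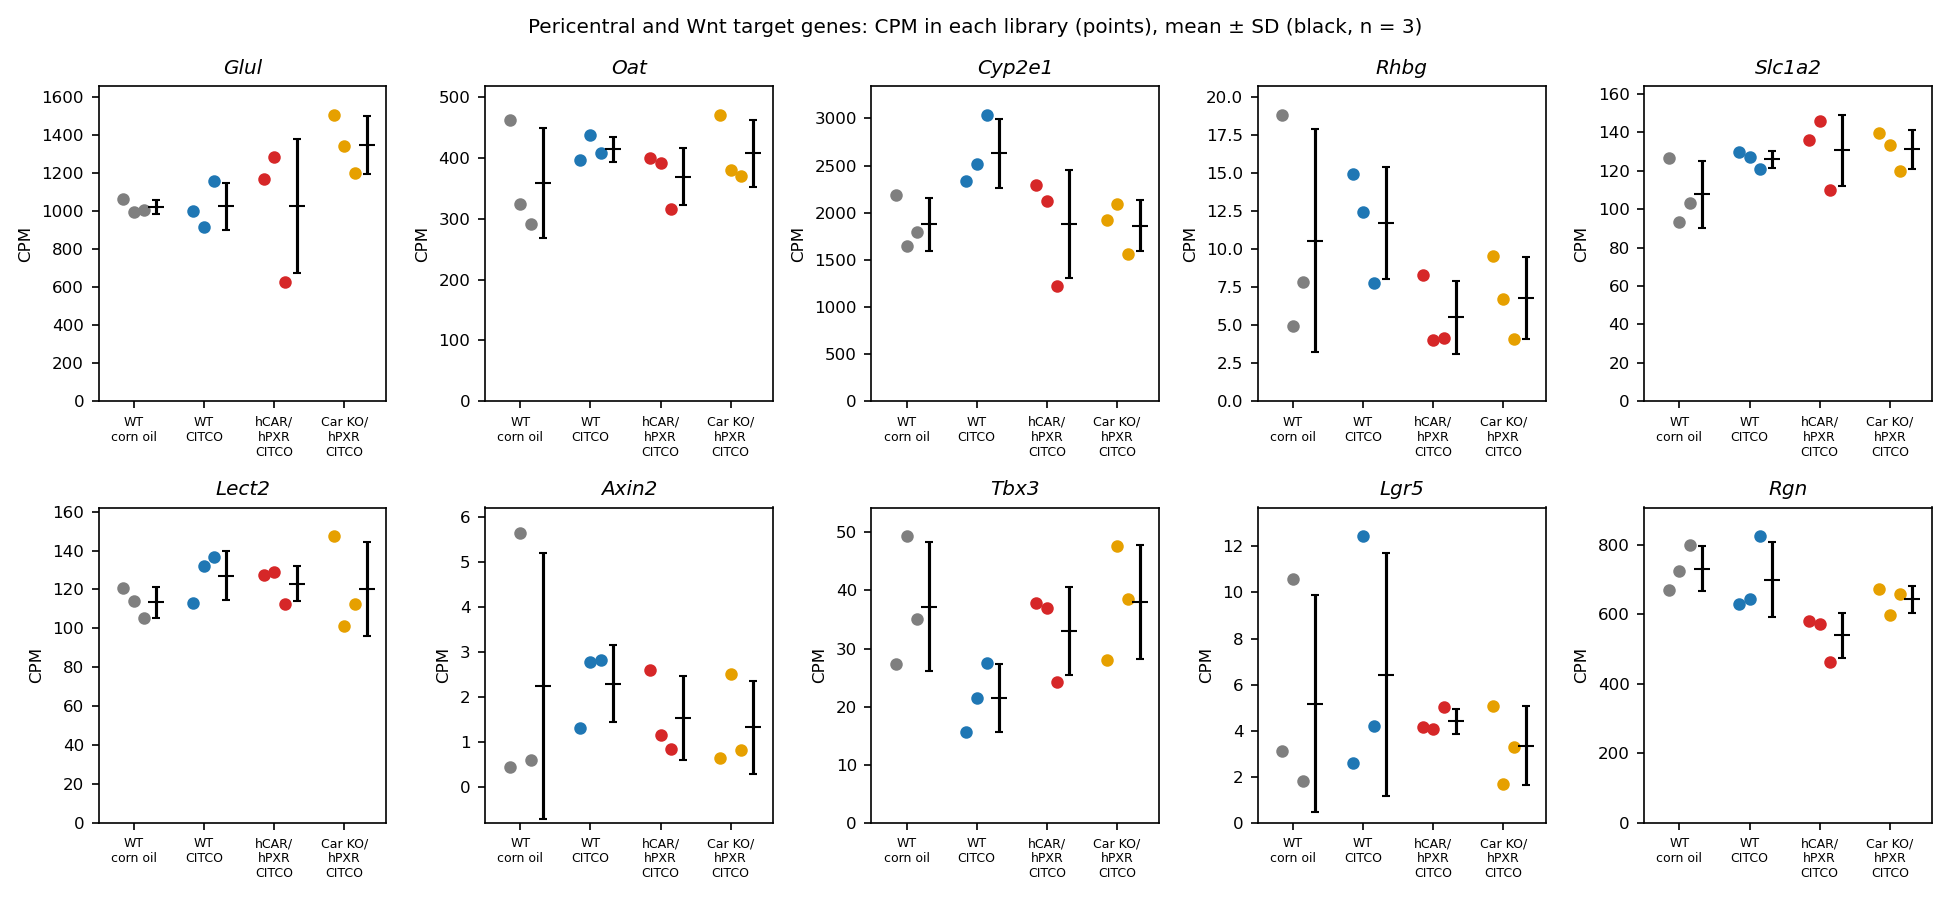
Level of each of the 10 genes in CPM (linear axis) in the 4 groups, with 1 point per library and the mean ± SD (n = 3) in black. Tbx3 is lowest in WT CITCO and Cyp2e1 highest there, 1 hCAR/hPXR library is low for Glul and Cyp2e1, and Axin2 stays under 6 CPM.

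Promoter windows from RefSeq (GRCm38.p6, from 250 bases before to 50 bases after a gene's start) were at hand for 6 of the 10 genes, namely Glul, Oat, Cyp2e1, Slc1a2, Lect2 and Axin2. They were searched on both strands for CTTTGAA and CTTTGAT, the letters that TCF/LEF factors of the Wnt pathway are known to bind. Of the 6 windows, 3 held such a word, as did those of 9.88% of the 27025 genes with a window. These matches are shown because the genes are grouped as Wnt targets, and a match describes letters, not binding. The word lies 135 bases before the window's RefSeq start in Cyp2e1, 207 bases in Slc1a2 and 32 bases in Lect2. For Slc1a2 that start is an internal one, inside the gene's extent given below. The Cyp2e1 start also lies inside the extent given below, near its first base, and the Lect2 start lies shortly before the gene's extent. The distances are thus to the RefSeq starts and not to the ends of those extents. The word is in capitals below with 30 bases on either side, 5′ to 3′ along the gene's strand. The stretches are chr7:140763654-140763720 (plus strand), chr2:102706201-102706267 (plus strand) and chr13:56548534-56548600 (minus strand) respectively. In Slc1a2 and Lect2 the capitals are the reverse complement of CTTTGAT.
Cyp2e1: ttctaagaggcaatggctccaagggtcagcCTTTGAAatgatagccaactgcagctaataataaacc
Slc1a2: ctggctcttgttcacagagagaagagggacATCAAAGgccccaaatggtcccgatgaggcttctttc
Lect2: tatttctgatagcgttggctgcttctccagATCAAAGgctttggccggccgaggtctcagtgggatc

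Glul (chromosome 1 of GRCm38, 153899944 to 153909723) encodes glutamine synthetase, which captures ammonia left in the blood that leaves the lobule. It measured 1065, 994 and 1006 CPM in the WT corn oil libraries and 1004, 916 and 1157 CPM in the WT CITCO libraries. In hCAR/hPXR mice it measured 1169, 1285 and 629 CPM, and in Car KO/hPXR mice 1508, 1341 and 1203 CPM. The corn oil, WT CITCO and hCAR/hPXR groups overlapped, and every Car KO/hPXR library was above every WT library. Means were 1022 ± 37.6, 1025 ± 122, 1028 ± 350 and 1351 ± 153 CPM (SD, n = 3) in that order of groups. CITCO left WT mice with a log2 fold change of 0.005 (95% interval -0.44 to 0.45), and hCAR/hPXR against WT mice gave 0.004 (95% interval -0.44 to 0.45). Both intervals lay inside a 1.5-fold change in either direction. Car KO/hPXR mice differed from WT mice by 0.40 (standard error 0.21), which was not called (edgeR adjusted p = 0.59). The hCAR/hPXR minus Car KO/hPXR difference was -0.39 (standard error 0.21, edgeR adjusted p = 0.54). It was -0.14 without hCAR/hPXR replicate 3, the library at 629 CPM, and -0.59 without hCAR/hPXR replicate 2.

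Cyp2e1 (chromosome 7, 140763739 to 140774987) encodes a P450 that oxidises ethanol, paracetamol and other small molecules and depends on β-catenin in the mouse. The WT CITCO libraries stood at 2337, 2517 and 3040 CPM, all above the 2191, 1646 and 1796 CPM of the WT corn oil libraries. The hCAR/hPXR libraries measured 2293, 2122 and 1225 CPM and the Car KO/hPXR libraries 1923, 2092 and 1562 CPM. No library of the other 3 groups reached the lowest WT CITCO library. Its mean in WT CITCO mice was 2631 ± 365 CPM (SD, n = 3), against 1878 ± 281 in WT corn oil, 1880 ± 574 in hCAR/hPXR and 1859 ± 271 in Car KO/hPXR mice. In WT mice the log2 fold change with CITCO was 0.49 (standard error 0.22), and the humanised genotypes differed from WT mice by -0.48 and -0.50 (standard error 0.22 each). None of these passed, with edgeR adjusted p-values of 0.52, 0.54 and 0.49. The 3 comparisons share the WT CITCO libraries, so that they are not independent of each other. The hCAR/hPXR minus Car KO/hPXR difference, which rests on no WT library, was 0.02 (95% interval -0.44 to 0.48).

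Tbx3 (chromosome 5, 119670669 to 119684724) encodes a T-box transcriptional repressor induced by β-catenin in liver. It had 15.6, 21.4 and 27.4 CPM in WT CITCO mice (24 to 39 counts) against 27.3, 49.4 and 35.0 CPM in WT corn oil mice. The hCAR/hPXR libraries had 37.8, 37.0 and 24.2 CPM and the Car KO/hPXR libraries 28.0, 47.6 and 38.6 CPM. The WT CITCO group lay below the Car KO/hPXR group without overlap and overlapped with the other groups by a single library each. Log2 fold changes were -0.78 (standard error 0.29) for WT CITCO against corn oil, 0.64 (standard error 0.29) for hCAR/hPXR against WT and 0.82 (standard error 0.30) for Car KO/hPXR against WT, all with CITCO. Their adjusted p-values by edgeR were 0.38, 0.55 and 0.35, so that none was called, and the last of these was the smallest adjusted p of any of the 8 genes in the 4 comparisons. At its start Tbx3 overlaps an antisense gene, Tbx3os1, by 115 exonic bases, and without a statement of the strand used in counting their reads cannot be told apart there. Tbx3os1 itself was given 0 to 17 counts per library. The same limit holds for Slc1a2 with Gm13872 (189 exonic bases), Glul with Teddm2 (116) and Axin2 with Gm11670 (209), none of which had more than 8 counts.

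Rgn (X chromosome, 20549787 to 20562089) encodes regucalcin, a gluconolactonase that also binds calcium. The hCAR/hPXR libraries had 581, 573 and 463 CPM, below every library of the other groups. WT CITCO mice had 631, 644 and 825 CPM, WT corn oil mice 670, 726 and 798 CPM, and Car KO/hPXR mice 672, 599 and 657 CPM. The hCAR/hPXR group differed from WT CITCO mice by a log2 fold change of -0.38 (standard error 0.16, edgeR adjusted p = 0.48) and from Car KO/hPXR mice by -0.25 (standard error 0.16, edgeR adjusted p = 0.62). CITCO in WT mice gave -0.06 (95% interval -0.39 to 0.27).

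Oat (chromosome 7, 132557478 to 132576398), Slc1a2 (chromosome 2, 102658659 to 102790784) and Lect2 (chromosome 13, 56542464 to 56548502) were the most even of the genes. Oat encodes ornithine aminotransferase, Slc1a2 a glutamate transporter that feeds glutamine synthesis in pericentral hepatocytes, and Lect2 a secreted hepatokine. Oat ranged from 292 to 463 CPM over the 12 libraries, Slc1a2 from 93.1 to 146 and Lect2 from 101 to 147. The groups overlapped in every comparison for each of the 3. Log2 fold changes lay between -0.16 and 0.20 for Oat, between -0.001 and 0.22 for Slc1a2 and between -0.07 and 0.16 for Lect2. The 95% intervals of these 3 genes lay inside a 1.5-fold change in all 4 comparisons, which was so for 17 of the 32 intervals of the 8 tested genes.

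Rhbg (chromosome 3, 88242874 to 88254709) encodes an ammonium transporter of the basolateral membrane and was read thinly, with 5 to 42 counts per library. It had 18.8, 4.94 and 7.85 CPM in WT corn oil, 14.9, 12.4 and 7.74 in WT CITCO, 8.29, 4.05 and 4.17 in hCAR/hPXR and 9.53, 6.68 and 4.11 in Car KO/hPXR mice. All groups overlapped. Its log2 fold change of -1.04 (95% interval -2.12 to 0.03) for hCAR/hPXR against WT CITCO was the largest of the genes, with an edgeR adjusted p of 0.59. At these counts the interval reached from a 0.229-fold to a 1.02-fold level. A second gene on the same strand, Gm38392, shares 1190 exonic bases with Rhbg and had at most 1.08 expected counts in any library.

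Axin2 (chromosome 11, 108920349 to 108950783), a feedback inhibitor of the pathway that is used as a general readout of Wnt signalling, had counts of 1, 8 and 1 in WT corn oil, 2, 4 and 4 in WT CITCO, 5, 2 and 1 in hCAR/hPXR and 1, 3 and 1 in Car KO/hPXR libraries. Lgr5 (chromosome 10, 115450311 to 115587780), the receptor for R-spondins, had counts of 7, 15 and 3, of 4, 18 and 6, of 8, 7 and 6 and of 8, 2 and 4 in the same order. Both genes overlapped between all groups. The Car KO/hPXR libraries held no more than 3 counts of Axin2, so no fold change is given against them. In an edgeR fit without the filter, log2 fold changes of the 2 genes had standard errors of 0.60 to 1.1, and 0 were called. Only WT corn oil replicate 2 exceeded 5 counts of Axin2, and Lgr5 exceeded 10 counts only in that library and in WT CITCO replicate 2.

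**Figure D2:**
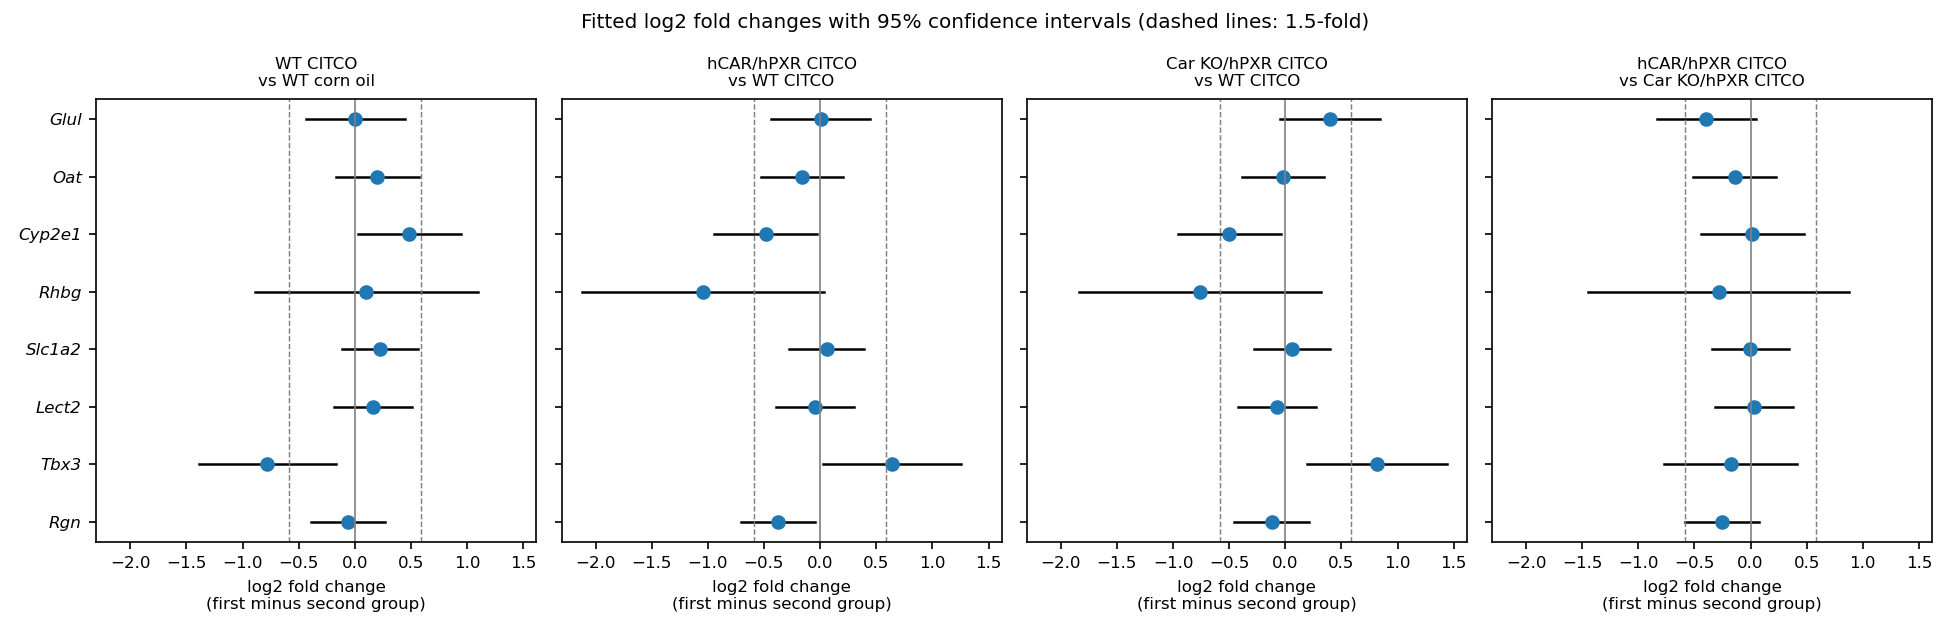
Fitted log2 fold changes (points) and 95% intervals (bars) of the 8 tested genes in the 4 comparisons, with dashed lines at a 1.5-fold change. Of the 32 intervals, 17 lie inside the dashed lines and 7 leave out 0, and the WT CITCO group is in each of those 7.

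Counted over the 8 tested genes, edgeR called 0 in each comparison. The share called among all genes was 0.233% for CITCO against corn oil in WT mice, 0.407% for hCAR/hPXR against WT, 0.256% for Car KO/hPXR against WT and 0.582% for hCAR/hPXR against Car KO/hPXR, all with CITCO. Unadjusted p-values were under 0.05 for 2, 3, 2 and 0 of the 8 genes in that order, against 9.13%, 8.81%, 9.3% and 10.6% of all genes. These were Cyp2e1 and Tbx3 in the first 3 comparisons, with Rgn in hCAR/hPXR against WT. DESeq2 and limma called 0 as well, with unadjusted p-values under 0.05 for 2, 2, 2 and 1 genes by DESeq2 and 2, 3, 2 and 1 by limma on the deposited transformed values. Libraries of the groups did not overlap for 1, 2, 3 and 1 of the 8 genes, against 14.7%, 13.6%, 14.2% and 15.1% of all genes. With 3 libraries against 3, an exact permutation test of a single gene cannot go below p = 0.1 (two-sided). A test of any difference over the 4 groups by edgeR passed for 0 of the 8 genes at an adjusted p under 0.05, as it did for 1.42% of all genes, and 0 had an unadjusted p under 0.05 against 11.6% of all genes. The same question gave 0 passing genes by DESeq2's likelihood ratio test and by limma, with unadjusted p-values under 0.05 for 2 of 8 and 3 of 10 genes, for 2 of 10 by edgeR without the filter and for 1 of 8 with a replicate block. Tbx3 came nearest with an edgeR adjusted p of 0.43. The median log2 fold change of the 8 genes was 0.13, -0.10, -0.05 and -0.16 in the 4 comparisons, beside medians of 0.00, 0.01, 0.00 and 0.01 over all genes.

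The position of the genes within a group differed by library. Of the 12, hCAR/hPXR replicate 3 lay below its group's mean for 8 of the 8 genes, whereas 50.2% of all genes did. Its median deviation over the 8 genes was -0.25 on the log2 scale, with -0.64 for Glul and -0.57 for Cyp2e1. It also was the lowest of the 12 libraries for 3 of the 8 genes, against 11.3% of all genes. Car KO/hPXR replicate 1 was the highest for 3 of the 8, against 6.92% of all genes. WT corn oil replicate 3 lay below its group's mean for 7 of the 8. Without hCAR/hPXR replicate 3, hCAR/hPXR against WT mice under CITCO gave log2 fold changes of 0.25 for Glul and -0.26 for Cyp2e1. Other libraries moved them the other way, Glul to -0.19 without hCAR/hPXR replicate 2 and Cyp2e1 to -0.67 without hCAR/hPXR replicate 1. None of these was called. Summed over the 10 genes, hCAR/hPXR replicate 3 held 2890 CPM, and the other hCAR/hPXR libraries held 4693 and 4760. Cyp2e1 and Glul make up most of this sum, so it largely restates their values and is not a separate observation. Replicate 3 of hCAR/hPXR was also the shallowest library, with 1167027 counts. Car KO/hPXR replicate 3, with 1172227 counts, summed to 4073 CPM over the 10 genes. In hCAR/hPXR replicate 3 the periportal genes listed below summed to 27792 CPM, against 14330 and 16945 in the other hCAR/hPXR libraries. The hepatocyte markers summed to 36379 CPM there, against 21856 and 22594. Alb, the albumin gene, is in both of these lists. It was at 20006 CPM there and at 7649 and 9498 CPM in the other libraries of the group. Both sums therefore largely follow this 1 gene and are not separate observations. The part of depth and of these genes in the position of hCAR/hPXR replicate 3 was not tested.

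**Figure D3:**
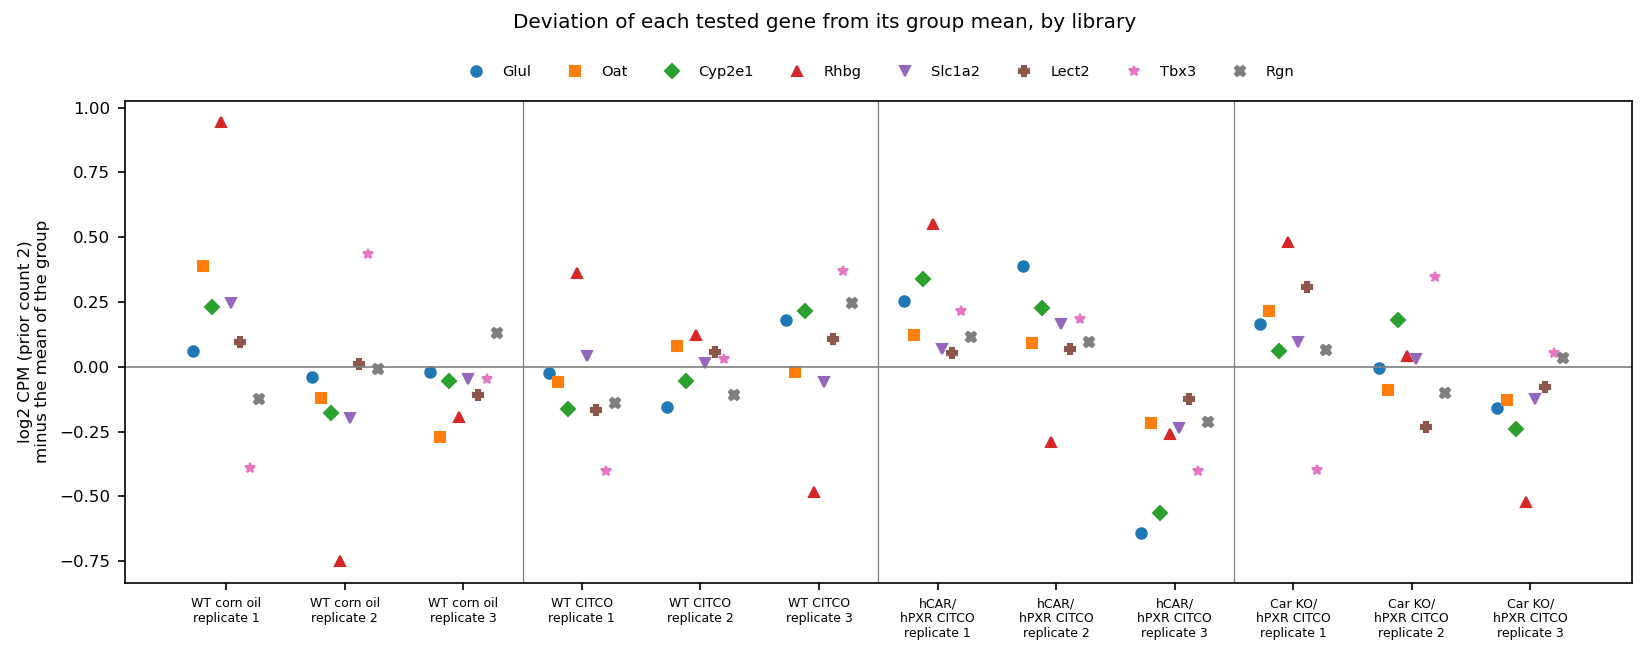
Deviation of each tested gene from the mean of its group's 3 libraries, in log2 CPM with a prior count of 2, for the 12 libraries. All 8 genes lie below 0 in hCAR/hPXR CITCO replicate 3, with Glul at -0.64 the lowest among them.

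Of 14 further pericentral genes, Cyp7a1, the rate-limiting enzyme of bile acid synthesis, was the single one called by edgeR in any comparison. It was lower in hCAR/hPXR mice, at 29.3 ± 8.22 CPM, than in WT CITCO mice, at 89.1 ± 40.3 CPM (SD, n = 3), with a log2 fold change of -1.59 (standard error 0.33, edgeR adjusted p = 0.038). DESeq2 called it too and limma did not. DESeq2 alone of the 3 tools called Pon1 in that comparison and Rnase4 in both comparisons with Car KO/hPXR mice. Without the filter on low counts, edgeR also called Rnase4 in those comparisons and Cyp4a14 in both comparisons of hCAR/hPXR mice. It then also called Csad and Cyp7a1 in Car KO/hPXR against WT mice. By edgeR with the filter 1, 4, 6 and 5 of the 14 had an unadjusted p under 0.05. Median log2 fold changes of the 14 were 0.04, -0.12, 0.02 and -0.23 in the 4 comparisons.

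Of 13 pericentral genes regulated by CAR or PXR, 4 rose in hCAR/hPXR mice over WT mice given CITCO, with a median of 0.60 over the list. They were Cyp2b10, the classic CAR target, with a log2 fold change of 6.05, the glutathione transferase Gstm3 with 2.57, and the P450s Cyp3a11 with 2.02 and Cyp2c29 with 1.93 (largest edgeR adjusted p = 0.0021). In Car KO/hPXR against WT mice Cyp2c37 and Cyp2c50 fell by 1.68 and 1.48 on the log2 scale and Gstm2 rose by 1.08 (largest edgeR adjusted p = 0.030), and without WT CITCO replicate 1 or replicate 2 the 3 calls became 1. With human CAR against no CAR, Cyp2b10, Cyp2c29, Cyp2c37, Cyp2c50 and Cyp2c54 were higher and Cyp2c38 lower. Cyp2b10 had at most 3 counts in the Car KO/hPXR libraries and 184 to 288 in the hCAR/hPXR libraries, so its fitted fold change is not a measured size. Those 6 calls became 3 without hCAR/hPXR replicate 2, hCAR/hPXR replicate 3 or Car KO/hPXR replicate 1, and 2 without Car KO/hPXR replicate 3. With all libraries DESeq2 called 9 of the list there, edgeR without the filter 8 and limma 5. CITCO in WT mice changed 0 of the 13 by edgeR, with 4 at an unadjusted p under 0.05, 0 called by DESeq2 and 0 by limma. The Cyp2c genes are near-identical copies, and the estimated split of shared reads makes their single values uncertain.

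**Figure D4:**
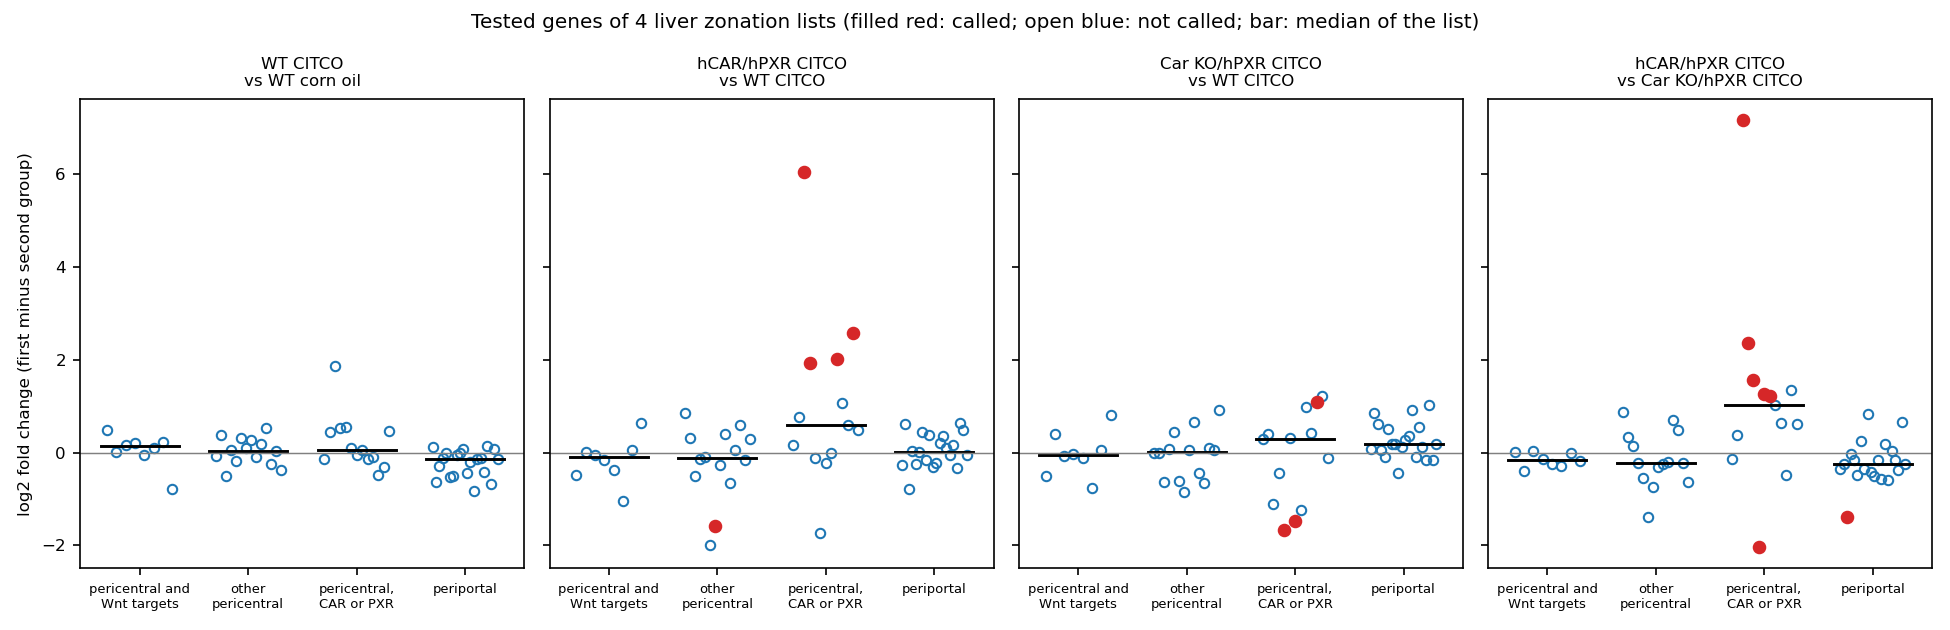
Log2 fold changes of the tested genes of 4 lists in the 4 comparisons, with called genes filled in red, others open in blue, and a bar at each list's median. The 8 pericentral and Wnt target genes hold no called gene and lie between -1.04 and 0.82, whereas Cyp2b10 of the CAR or PXR list reaches 6.05 and, against libraries with at most 3 counts, 7.16.

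At the opposite end of the lobule, edgeR called 1 of 20 periportal genes in 1 comparison. Apoa4, an apolipoprotein, was at 62.2 CPM in hCAR/hPXR and at 164 CPM in Car KO/hPXR mice (log2 fold change -1.40, standard error 0.22, edgeR adjusted p = 0.0051). In WT mice CITCO went with lower values for 16 of the 20 periportal genes (median log2 fold change -0.14). By edgeR 0 of them were called and 5 had an unadjusted p under 0.05. Hal, a histidine-degrading enzyme, had the largest periportal difference in that comparison, at 213 CPM in WT CITCO and 378 CPM in WT corn oil mice (log2 fold change -0.83, edgeR adjusted p = 0.12). DESeq2 called Hal there (adjusted p = 0.010), as did edgeR without the filter on low counts, and limma called 0 of the 20. DESeq2 also called Hal as higher in Car KO/hPXR than in WT mice given CITCO (adjusted p = 0.00098). It called Apoa4 as lower in hCAR/hPXR than in WT mice given CITCO (adjusted p = 0.040). edgeR without the filter called both, and also Sds and Aldh1b1 as higher in Car KO/hPXR than in WT mice. The Apoa4 call against Car KO/hPXR mice was also made by DESeq2, limma and edgeR without the filter.

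The Wnt pathway itself was covered by 6 lists with 73 genes, of which 35 could be tested. edgeR called 0 in each of the 4 comparisons, with 2, 3, 1 and 1 at an unadjusted p under 0.05. DESeq2 and limma called 0 as well, but over other numbers of genes. DESeq2 gave an adjusted p to 19, 12, 18 and 19 genes and could call no others. Its unadjusted p was under 0.05 for 3, 2, 3 and 1 genes. By limma 66 genes were tested, with 6, 5, 7 and 2 at an unadjusted p under 0.05. Without the filter on low counts edgeR tested 66 genes and called 1, the receptor gene Fzd4. Among ligands and R-spondins, 1 of 7 genes found could be tested, Rspo3, the R-spondin of the central vein. It had 4.11 CPM in WT corn oil, 6.09 in WT CITCO, 3.11 in hCAR/hPXR and 4.88 in Car KO/hPXR mice on average. Of the Wnt2 and Wnt9b ligands made by liver endothelium no library held more than 10 and 3 counts. Among receptors 8 of 15 were tested, and Fzd4 had the largest difference, with 22.6 CPM in hCAR/hPXR against 48.2 in WT mice given CITCO (log2 fold change -1.08, standard error 0.31, edgeR adjusted p = 0.20). Its adjusted p was 0.0093 by edgeR without the filter and 0.41 by limma, and DESeq2's own filter left it with none. The study itself, by its own DESeq2 test, lists Fzd4 as lower in hCAR/hPXR than in WT mice given CITCO. Lgr4, the other R-spondin receptor of hepatocytes, lay between 35.5 and 43.3 CPM in all groups on average.

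Ctnnb1, the gene for β-catenin, had means of 222 ± 18.7, 206 ± 19.2, 209 ± 33.9 and 223 ± 9.89 CPM (SD, n = 3) in WT corn oil, WT CITCO, hCAR/hPXR and Car KO/hPXR mice. Its log2 fold changes lay between -0.11 and 0.12, each smaller than its standard error of 0.15. Of the destruction complex, which degrades β-catenin, and its regulators, 12 of 15 genes were tested. By edgeR 0 had an unadjusted p under 0.05 in any comparison. The inhibitor Ctnnbip1, which keeps β-catenin from TCF factors, was at 41.7 CPM in WT CITCO and 65.8 CPM in Car KO/hPXR mice (log2 fold change 0.65, standard error 0.21, edgeR adjusted p = 0.26). Of 7 other Wnt targets 3 were tested, and edgeR gave 0 calls and 0 unadjusted p-values under 0.05 for them. Ccnd1, which encodes cyclin D1, had means between 46.5 and 53.5 CPM in the 4 groups. Cd44, an adhesion receptor, had means of 2.85, 6.10, 8.13 and 4.65 CPM in WT corn oil, WT CITCO, hCAR/hPXR and Car KO/hPXR mice. Jun, a transcription factor of AP-1, had 9.33, 12.6, 15.7 and 12.6 CPM in the same order. All 3 had positive log2 fold changes for CITCO in WT mice (median 0.43) and for human CAR against no CAR (median 0.30), with the smallest edgeR adjusted p at 0.57.

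Markers of the cells that send Wnt signals and of other cells gave 0 calls by edgeR in every comparison, with unadjusted p-values under 0.05 for 7, 4, 4 and 5 of 36 genes. DESeq2 and limma called 0 markers too, but over other numbers of genes. DESeq2 gave an adjusted p to 27, 18, 23 and 25 markers and could call no others. Its unadjusted p was under 0.05 for 6, 4, 3 and 5 markers. By limma 49 markers were tested, with 6, 5, 5 and 7 at an unadjusted p under 0.05. Of 9 tested markers of central vein and sinusoidal endothelium, 8 were lower in hCAR/hPXR than in WT mice given CITCO (median log2 fold change -0.29), and their summed level ranged from 270.5 to 308 CPM in hCAR/hPXR and from 293 to 380 CPM in WT CITCO libraries. Summed markers of hepatocytes ranged from 21856 to 36379 CPM in hCAR/hPXR libraries and from 27618 to 36018 CPM in WT CITCO libraries. Markers of Kupffer cells were higher with CITCO in WT mice for 8 of 9 genes (median 0.51), with sums of 326 to 505 CPM against 280 to 348 CPM with corn oil. All 5 red blood cell genes were lower in hCAR/hPXR than in WT CITCO mice (median -0.54, 3 with an unadjusted p under 0.05 by edgeR and a smallest DESeq2 adjusted p of 0.16), with sums of 1859 to 2192 CPM against 1987 to 3985 CPM. Of the red blood cell genes, the study's own DESeq2 test lists Hba-a2 and Hbb-bs as lower in hCAR/hPXR than in WT mice given CITCO. No gene of these 4 lists was at 0 throughout a group. The part of these cells in the values of the pericentral genes was not tested.

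The genes most like Glul over the 12 libraries were Slc22a3, an organic cation transporter and pericentral gene, with Pearson's r of 0.89, Gpcpd1, a glycerophosphocholine phosphodiesterase, with 0.88, and Prodh, proline dehydrogenase, with 0.88. Prodh lay between 21.7 and 91.8 CPM over the libraries. These are descriptions over libraries that share depth and group, with no test. Among the tested genes themselves, Glul had r of 0.56 with Slc1a2, 0.51 with Oat and 0.44 with Cyp2e1. The closest pair was Oat and Slc1a2 with 0.75, and Tbx3 and Rhbg had the lowest at -0.59.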

How the data were processed

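RNA was extracted with TRIzol and libraries were made with the QuantSeq 3′ kit for Ion Torrent. The authors trimmed reads (Trimmomatic 36), aligned them with STAR 2.5.2 and deposited expected counts per gene from RSEM 1.3 on the Ensembl annotation of GRCm38, without normalization. They also deposited variance-stabilised values on a log2 scale made with DESeq2. A read fitting several genes is divided by RSEM, and 13.8% of non-zero values were not whole.

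After rounding to whole numbers, expected counts were fitted with edgeR 4.0.16 (R 4.3.3), with TMM factors and 1 mean per group over all 12 libraries. Intervals used 18.1 degrees of freedom on average. DESeq2 1.42.0, limma 3.58.1 and the other alternatives listed below were run on the same libraries, and the test was checked on simulated counts. A group with at most 3 counts in every library was treated as at the floor. That floor covers counting error only, whereas the intervals come from the edgeR fit and include the spread between libraries. The genes, lists and tests were chosen with earlier results of these data known. Named genes beside the 10 are called genes of the lists, up to 3 of largest change per list and comparison, and the 3 most like Glul. Others are examples chosen after their values were seen (Lgr4, Ctnnb1, Wnt2, Wnt9b, Cd44, Jun, Alb, Pon1, Rnase4, Cyp4a14, Csad, Sds, Aldh1b1). Coordinates are from GENCODE M21.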

Additional observations from a re-analysis of the deposited data

How the results depend on the processing

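The 5 counts of called genes stayed at 0 under every alternative that gave a value: DESeq2 size factors, DESeq2's Wald test (likelihood ratio test for the 4 groups at once), no filter on low counts, only the groups compared, limma on the deposited values, a replicate block, and each library left out in turn (lowest and highest 0). Of 383 single-gene values under an alternative, 0 were called, and the smallest adjusted p was 0.14 (Rgn by DESeq2 in hCAR/hPXR against WT, where its alternatives ranged from 0.14 to 0.81). Sign differed from the reported value for 42 of the 383, with at least 1 of the values within 1 standard error of 0, and these were not counted as reversed. The 44 values that alternatives gave for Axin2 and Lgr5 held 0 calls. Leaving out hCAR/hPXR replicate 3 moved Glul in hCAR/hPXR against WT from 0.00 to 0.25 and Cyp2e1 from -0.48 to -0.26. At the other end of the alternatives, Glul was at -0.19 and Cyp2e1 at -0.67 in that comparison. Calls of the CAR or PXR list, an alternative added after the data were seen, went without the filter from 4 to 7 in hCAR/hPXR against WT and from 3 to 6 in Car KO/hPXR against WT, where DESeq2 gave 5. In hCAR/hPXR against Car KO/hPXR they went from 6 to 8 without the filter, and DESeq2 gave 9 and limma 5. The main fit did not treat replicate number as a pairing. Of 18 same-numbered pairs, 7 had correlated deviations over 0.1 (range -0.16 to 0.48), and pairs of replicate 3 ranged from 0.03 to 0.26. Differently numbered pairs were not set beside them, so the check cannot say whether replicate number marks a shared batch. The replicate block gave 0 called genes in all 5 tests. Calls of the other lists by DESeq2, limma and edgeR without the filter, also added after the data were seen, are given beside those lists. Low counts left wide intervals for Axin2, Lgr5 and Rhbg.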
